A study of Arabidopsis thaliana with 6 samples.

Results

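The JAZ (jasmonate ZIM-domain) proteins are repressors of the response to jasmonate, a lipid-derived hormone of wounding, defence and fertility. The genes described here are JAZ1 (AT1G19180), JAZ2 (AT1G74950), JAZ3 (AT3G17860), JAZ5 (AT1G17380), JAZ6 (AT1G72450), JAZ7 (AT2G34600), JAZ8 (AT1G30135), JAZ9 (AT1G70700), JAZ10 (AT5G13220) and JAZ12 (AT5G20900). They were chosen by these gene IDs, and all 10 were found among the 33323 genes listed for each library. RNA selected for poly(A) tails was sequenced from whole Arabidopsis thaliana seedlings aged 5 days, with 3 libraries of wild type (WT) and 3 of the mutant hid1 (hidden treasure 1), which are labelled as biological replicates. Both genotypes grew in the light condition labelled cR, understood here as continuous red light, and HID1 is a noncoding RNA known to promote light-driven seedling development. The mutant is a single genotype whose allele the labels do not state, and they do not state the accession of the WT either. Expression is given as the RPKM values that the authors deposited, in which reads are divided by gene length and library depth, so that levels can be compared between genes.

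In the absence of the active hormone, jasmonoyl-isoleucine, JAZ proteins bind MYC2 and related transcription factors and recruit the corepressors NINJA and TOPLESS (TPL). The hormone joins JAZ proteins to the receptor COI1, part of a ubiquitin ligase, and they are then degraded, which frees the MYC factors. Many JAZ genes are themselves targets of MYC factors, so that the response includes the renewed synthesis of its own repressors. Transcript levels do not show how much JAZ protein is present.

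The hexamer CACGTG, called the G-box, is a DNA element bound by MYC2 and also by other factors, and AACGTG (the T/G-box) and CACATG are related elements. The window from 250 bases before to 50 bases after the annotated start of each gene was searched for these letters on both strands, in the RefSeq genome TAIR10.1. A match was present in 9 of the 10 JAZ windows, against 26.4% of the 27443 protein-coding genes searched. CACGTG stood in 4 of the 10 windows (7.7% of all genes), AACGTG in 4 (9.0%) and CACATG in 2 (12.9%), and JAZ3 held both CACGTG and AACGTG. No matches overlapped each other in these windows, and a match describes letters only. The outermost annotated start, which sets each window, may differ from the start in use. The windows of JAZ6, the tested member with the largest log2 fold change between the genotypes, of its closest relative JAZ5 and of JAZ2, the closest relative of JAZ1, are shown with matches in capitals. They lie on the minus strand at chr1:28150397-28150696 (JAZ2), chr1:27276513-27276812 (JAZ6) and chr1:5957462-5957761 (JAZ5).
JAZ2: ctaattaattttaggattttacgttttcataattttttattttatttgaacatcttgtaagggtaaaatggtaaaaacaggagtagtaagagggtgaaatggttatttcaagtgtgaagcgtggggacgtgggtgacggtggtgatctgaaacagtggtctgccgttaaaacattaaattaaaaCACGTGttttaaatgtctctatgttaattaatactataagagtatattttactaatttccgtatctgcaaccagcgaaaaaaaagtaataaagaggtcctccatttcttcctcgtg
JAZ6: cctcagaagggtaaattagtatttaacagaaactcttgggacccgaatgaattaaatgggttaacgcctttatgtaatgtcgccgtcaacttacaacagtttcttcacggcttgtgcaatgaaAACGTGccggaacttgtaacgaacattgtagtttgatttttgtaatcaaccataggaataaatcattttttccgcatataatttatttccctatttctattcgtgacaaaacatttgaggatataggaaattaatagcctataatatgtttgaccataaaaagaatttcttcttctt
JAZ5: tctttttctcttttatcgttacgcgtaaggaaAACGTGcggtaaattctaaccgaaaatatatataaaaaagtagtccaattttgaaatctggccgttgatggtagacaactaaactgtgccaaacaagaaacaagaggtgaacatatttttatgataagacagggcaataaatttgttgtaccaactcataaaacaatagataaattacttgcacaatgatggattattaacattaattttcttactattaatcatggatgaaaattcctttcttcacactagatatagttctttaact
The match in JAZ6 begins 127 bases before the start, that in JAZ5 218 bases before it and that in JAZ2 66 bases before it.

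**Figure D1:**
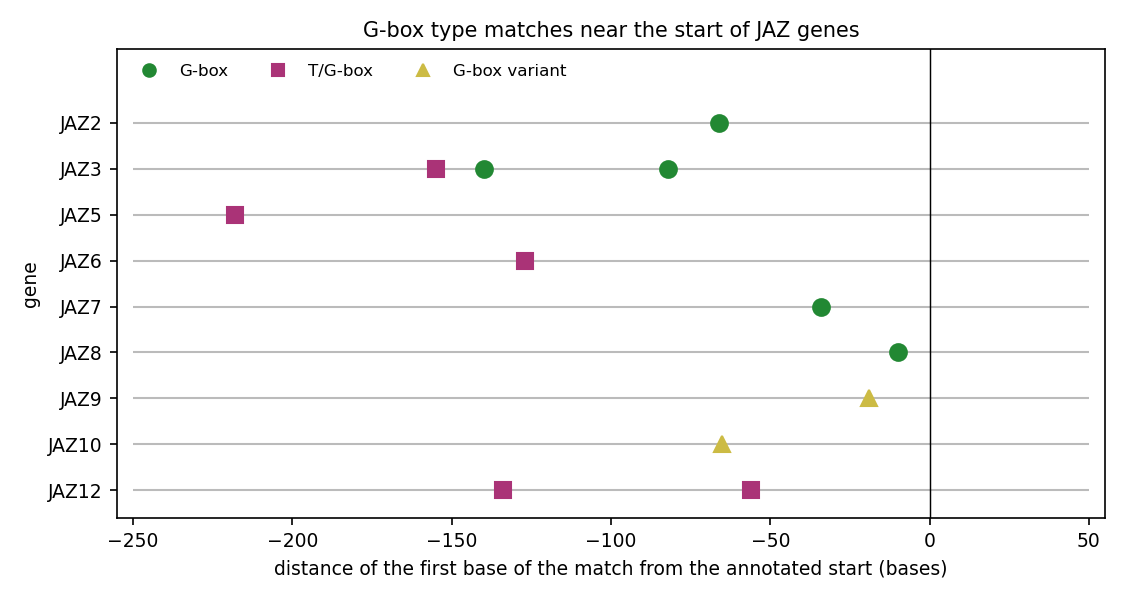
Matches to the G-box, the T/G-box and the G-box variant CACATG (symbols) from 250 bases before to 50 bases after the annotated start of the 9 JAZ genes with a match (grey lines), with the distance in bases on the x axis. JAZ3 has 3 matches and JAZ12 has 2.

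Depth was estimated at about 17.8 to 26.1 M reads per library from the size of the smallest steps in the values, with overlapping ranges in the genotypes. AT2G35747, a feature on chromosome 2 that RefSeq lists as a small nucleolar RNA, was picked because it is listed at 0 in hid1. Its RPKM was 16.73, 10.83 and 10.1 in WT replicates 1 to 3 and listed at 0 in the 3 hid1 libraries. Picked by these values, it is not an independent check of the genotype labels. WT replicate 1 stood apart from the other WT libraries in markers of root and root hair. The summed RPKM of 10 such markers was 178, 88.3 and 88.8 in WT replicates 1 to 3 and 206.5, 125 and 158 in hid1 replicates 1 to 3, and none of the 10 was at 0 in every library. Of these markers 4 were higher in hid1 at a limma adjusted p of at most 0.05 (EXPA7, PRP3, RSL4 and SCR) and 1 was lower (the iron transporter gene IRT1). Over all tested genes 9.41% were called higher and 4.21% lower. RSL4 reached the mean of 1 RPKM needed for the test only in hid1, where it is high (1.90, against 0.647 in WT). Each of the 4 lost its call when some single libraries were left out, with an adjusted p of up to 0.151, and IRT1 did not, while none of 5 markers of green tissue, among them RBCS1A and RCA, was called. At an unadjusted p under 0.05 there were 2 of these 5, against 5685 of all 18871 tested genes. Of the 5, 1 or 2 were called lower in 6 of the 13 other settings. In whole seedlings, fewer cells of a type and less RNA per cell cannot be told apart.

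The 10 members covered a wide range of levels, and their order differed between the genotypes. In WT, JAZ12 was the highest at 34.0 ± 2.64 RPKM (mean ± SD, n = 3 here and below), followed by JAZ9 at 15.8 ± 2.27, JAZ6 at 14.7 ± 0.530, JAZ2 at 9.44 ± 0.75, JAZ1 at 7.25 ± 1.14, JAZ3 at 5.45 ± 1.02, JAZ10 at 1.62 ± 0.752 and JAZ5 at 0.773 ± 0.10. JAZ7 and JAZ8 lay at or near 0. Among neighbours in that order, the libraries of JAZ9 and JAZ6, of JAZ1 and JAZ3, and of JAZ7 and JAZ8 overlapped. In hid1, JAZ1 moved from the fifth place to the third at 12.1 ± 1.97, and JAZ6 from the third to the fifth at 7.13 ± 0.982. The libraries of JAZ9 and JAZ1, of JAZ2 and JAZ6, and of JAZ7 and JAZ5 overlapped there.

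The summed level of the 10 genes overlapped between the genotypes. The sum was 96.4, 88.7 and 82.3 RPKM in WT replicates 1 to 3 and 90.0, 79.3 and 101.1 in hid1 replicates 1 to 3, and the ranges overlapped. JAZ12 supplied 38.2 ± 2.28% of it in WT and 43.4 ± 0.422% in hid1. The share of JAZ6 was 16.5 ± 0.739% in WT and 7.91 ± 0.568% in hid1, and that of JAZ1 was 8.10 ± 0.669% and 13.4 ± 1.10%. JAZ5 supplied 0.874 ± 0.161% in WT and 0.308 ± 0.148% in hid1. The share of JAZ3 was 6.08 ± 0.676% and 4.82 ± 0.448%, with the lowest WT library (5.35%) close to the highest of hid1 (5.32%). For these 5 genes the shares of the genotypes did not overlap. The shares of a library add to 100%, so a change in 1 member moves those of the others. In RPKM, JAZ12 and JAZ3 overlapped between the genotypes. No background was made for shares, while 34.6% of all tested genes showed no overlap in RPKM. No test was made on the sum or the shares.

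**Figure D2:**
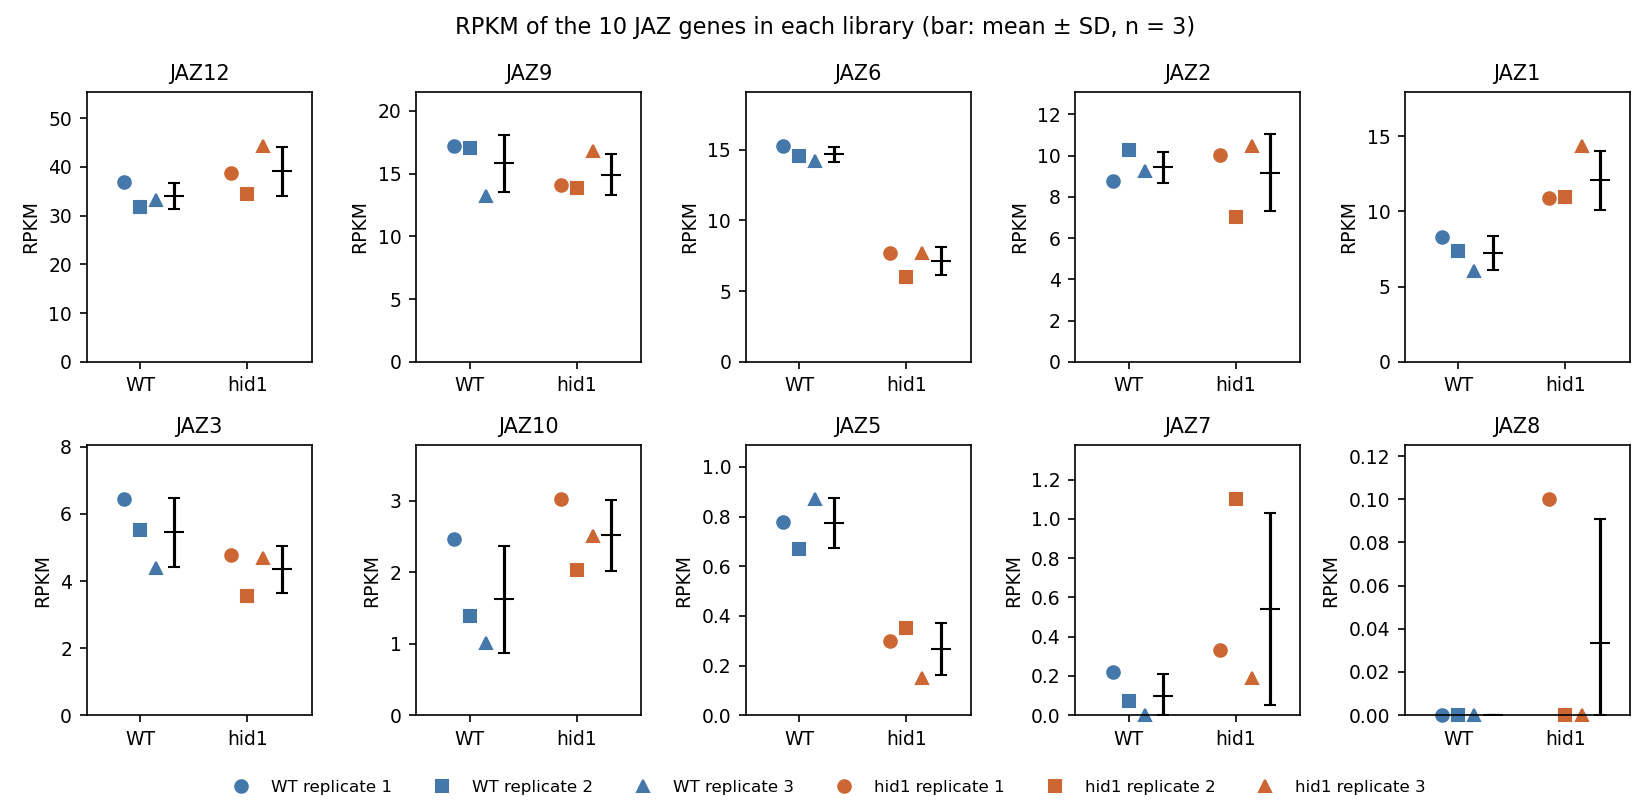
RPKM (y axis, a scale of its own for each gene, from 0) of the 10 JAZ genes in the 3 WT and 3 hid1 libraries, as points, with mean ± SD beside them, in order of WT level. The hid1 points lie above all WT points for JAZ1 and below all of them for JAZ6 and JAZ5, and overlap them for the other members.

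Across all genes, 18871 passed a minimum mean of 1 RPKM in either genotype and were tested with limma on log2(RPKM + 1), a scale that understates changes of low genes. A gene was called changed at a Benjamini-Hochberg adjusted p of at most 0.05 over all of them. This called 13.6% of genes, 9.41% higher in hid1 and 4.21% lower. The split of 1775 higher and 794 lower became 1310 and 1338 with quantile normalization, 1346 and 1235 with median-ratio scaling, and 1428 and 1142 with a trend with exon length removed. Of the 10 members, 7 passed the minimum, and 2 of these 7 (28.6%) were called, JAZ1 higher and JAZ6 lower. With so few members, this share is given as a count beside the background and not as a property of the family. The libraries of the genotypes did not overlap for these 2 of the 7 either, where 34.6% of all tested genes showed no overlap. The median log2 fold change of the 7, hid1 minus WT, was -0.05, and that of all tested genes was 0.07.

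JAZ6 had the largest log2 fold change of the 7 tested members. Its gene lies on chromosome 1 (chr1:27273968-27276562, minus strand, TAIR10.1). It was at 15.25, 14.52 and 14.22 RPKM in WT replicates 1 to 3 and at 7.71, 6.0 and 7.69 in hid1 replicates 1 to 3. The WT libraries lay close together, and every hid1 library was below all of them. JAZ6 fell by 0.95 on the log2 scale (SE 0.13, limma adjusted p = 0.00103), and the ratio of mean RPKM was 2.06 in favour of WT. The call was kept in all 13 alternative settings, with a log2 fold change from -1.05 to -0.70. About 286 to 790 reads per library stood behind these values.

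JAZ5, the closest relative of JAZ6 in sequence and known as a repressor of the same kind, was low in both genotypes. It was at 0.78, 0.67 and 0.87 RPKM in WT replicates 1 to 3 and at 0.3, 0.35 and 0.15 in hid1 replicates 1 to 3. Its 3 hid1 libraries also lay below its 3 WT libraries, a pattern found in this direction in 11.4% of tested genes, which do not include JAZ5. With a mean under 1 RPKM in each genotype, JAZ5 did not enter the test. In the fit with no minimum it was called lower (log2 fold change -0.49, SE 0.08, limma adjusted p = 0.0232 over 25794 genes). That fit called 492 genes lower. About 30 to 51 reads stood behind its WT values and 8 to 18 behind those of hid1. No stretch of 50 bases in the exons of JAZ5 or JAZ6 was shared with those of another gene.

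JAZ1, whose protein was among the first shown to be degraded through COI1, differed in the opposite direction. Its gene lies on chromosome 1, on the plus strand. It was at 8.3, 7.4 and 6.04 RPKM in WT replicates 1 to 3 and at 10.92, 10.97 and 14.35 in hid1 replicates 1 to 3. Every hid1 library was above all WT libraries, as for 23.1% of tested genes, and hid1 replicate 3 was the highest. JAZ1 rose by 0.66 on the log2 scale (SE 0.15, limma adjusted p = 0.0179), a ratio of mean RPKM of 1.67. The call was lost without WT replicate 3 (adjusted p = 0.0722), without hid1 replicate 3 (0.0684) and with no minimum level (0.0558), and held in the other 10 settings, with a log2 fold change from 0.48 to 0.76 over all settings. Neither JAZ1 nor JAZ6 reached a difference of 1 on the log2 scale used here.

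JAZ2, the closest relative of JAZ1 and known for a role in the guard cells of leaves, was not called. Its values were 8.79, 10.26 and 9.27 RPKM in WT and 10.05, 7.02 and 10.47 in hid1. The genotypes overlapped, with hid1 replicate 2 the lowest and hid1 replicate 3 the highest of all 6. The log2 fold change was -0.05, with a 95% interval from -0.40 to 0.29 (limma adjusted p = 0.857).

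The ratio of JAZ1 to JAZ2 within a library does not depend on how libraries are scaled. As log2 values it was -0.08, -0.47 and -0.62 in WT replicates 1 to 3 and 0.12, 0.64 and 0.45 in hid1 replicates 1 to 3. JAZ2 was thus the higher of the pair in each WT library and JAZ1 in each hid1 library. The difference of the means was 0.80 (exact two-sided permutation test, p = 0.1, the smallest that 3 against 3 libraries allow; 0.2 adjusted over the 4 pairs of relatives compared). The log2 ratio of JAZ6 to JAZ5 was 4.25 ± 0.206 in WT and 4.82 ± 0.799 in hid1, with overlap (exact p = 0.3), so a difference in response between these relatives was not detectable with these libraries.

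**Figure D3:**
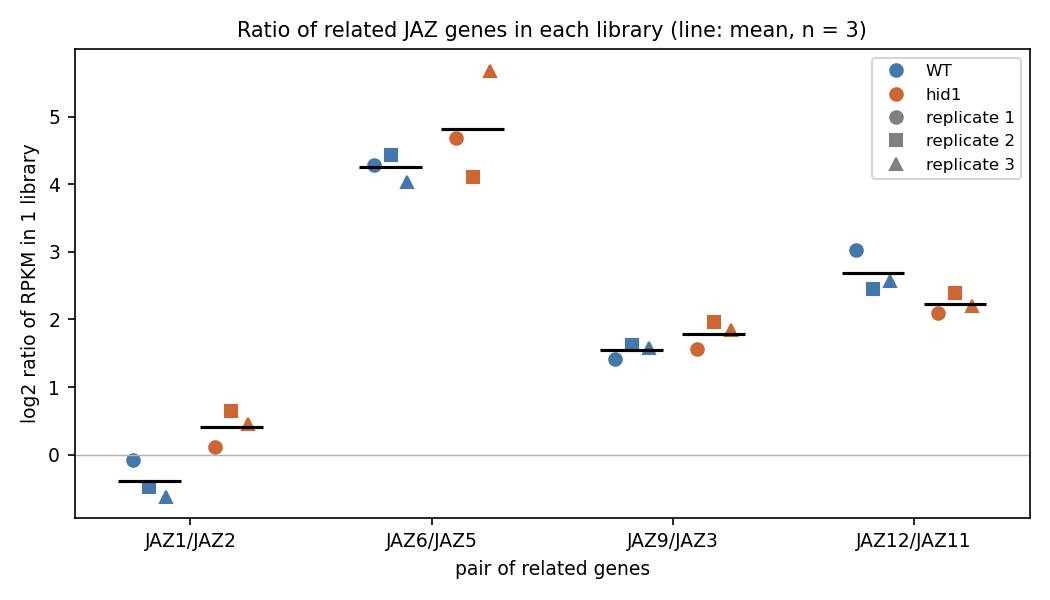
The log2 ratio of RPKM of related genes in each library (y axis) for 4 pairs (x axis), with points for libraries and a line for the mean of 3. The genotypes separate for JAZ1/JAZ2 and for JAZ12/JAZ11 and overlap for JAZ6/JAZ5 and JAZ9/JAZ3.

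JAZ12, the most abundant member, known as a target of the ubiquitin ligase KEG, was not called. It was at 36.94, 31.81 and 33.26 RPKM in WT and at 38.63, 34.36 and 44.27 in hid1, and the ranges overlapped. Its log2 fold change was 0.19 with a 95% interval from -0.08 to 0.46 (limma adjusted p = 0.328). The genes AT5G20910 and AT5G03235 overlap JAZ12 on the opposite strand, and since the use of strand in counting is not given, reads of these genes cannot be told apart from those of JAZ12 where they overlap.

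JAZ11, which is not among the 10 members and is the relative of JAZ12, was at 4.54, 5.8 and 5.58 RPKM in WT and at 9.08, 6.57 and 9.61 in hid1. Its hid1 libraries lay above those of WT, and it was called higher (log2 fold change 0.57, SE 0.16, limma adjusted p = 0.0423). That call was lost in 9 of the 13 other settings, with an adjusted p of up to 0.134. These settings included each removal of a WT library (0.0737, 0.0737 and 0.0876), of hid1 replicate 1 (0.129) or of hid1 replicate 3 (0.134). The log2 ratio of JAZ12 to JAZ11 was 2.69 ± 0.30 in WT and 2.23 ± 0.150 in hid1, without overlap (exact permutation p = 0.1, adjusted 0.2).

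JAZ9 is known to hinder the binding of the DELLA protein RGA to PIF3, a factor of seedling elongation. It was at 17.21, 17.05 and 13.2 RPKM in WT and at 14.11, 13.9 and 16.79 in hid1, so that the genotypes overlapped over their whole range. The log2 fold change was -0.07, with a 95% interval from -0.38 to 0.23 (limma adjusted p = 0.764).

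JAZ3, which was identified through a jasmonate-insensitive mutant, was at 6.44, 5.51 and 4.4 RPKM in WT and at 4.79, 3.55 and 4.7 in hid1. WT replicate 3 lay below 2 of the hid1 libraries, and the difference did not pass (log2 fold change -0.27, 95% interval -0.64 to 0.10, limma adjusted p = 0.316). JAZ4, a relative of JAZ3 and JAZ9 outside the 10 members, was at most 1.13 RPKM in any library and was not tested.

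JAZ10, known to restrain jasmonate responses and for splice forms that resist degradation, was at 2.46, 1.39 and 1.01 RPKM in WT and at 3.02, 2.03 and 2.5 in hid1. WT replicate 1 lay within the hid1 range and the other WT libraries lay below it. Over all libraries the gene did not pass (log2 fold change 0.45, SE 0.22, 95% interval -0.03 to 0.94, limma adjusted p = 0.193). Without WT replicate 1 it did (0.67, adjusted p = 0.0332), in a fit that called 3260 genes against 2569 with all libraries. WT replicate 1 was also the highest of WT in the root markers given above, and their part in this result was not tested. RefSeq lists 7 transcripts for JAZ10, and a value per gene does not separate them. A gene on the opposite strand, AT5G02045, overlaps JAZ10, with 1.02% of the 50-base stretches of its exons.

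JAZ7 and JAZ8, whose proteins depart from the canonical sequence that binds the receptor, were barely detected. JAZ7, linked to leaf senescence in darkness, was at 0.22, 0.07 and 0 RPKM in WT and at 0.33, 1.1 and 0.19 in hid1, and the genotypes overlapped. The value of 1.1 in hid1 replicate 2 came from about 20 reads, and the other 5 libraries had about 0 to 5. JAZ8, a repressor that can bind TOPLESS directly, was listed at 0 in 5 libraries and at 0.1 in hid1 replicate 1, about 1 read. A count of 0 allows a level of up to 0.143 to 0.189 RPKM in those 5 libraries, for 3 reads and counting error only. With no minimum level neither passed (limma adjusted p = 0.249 for JAZ7 and 0.597 for JAZ8). The similar gene AT3G22275, which RefSeq describes as a jasmonate ZIM-domain protein, was listed at 0 in 5 libraries and at 0.13 in hid1 replicate 2.

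**Figure D4:**
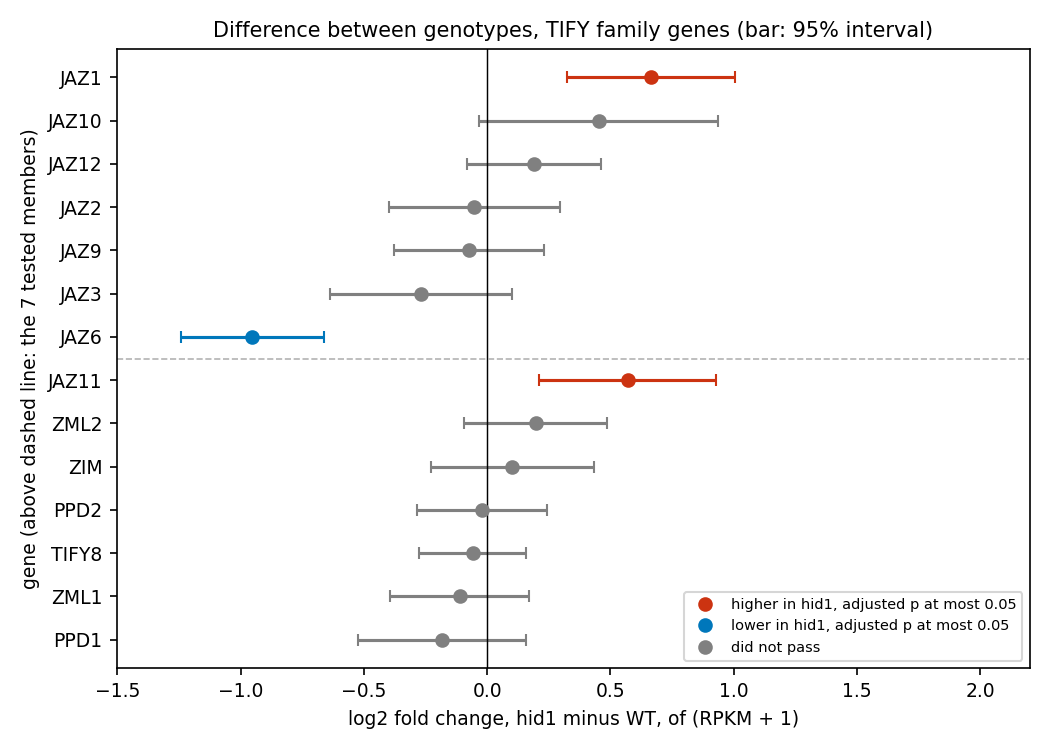
Log2 fold change of RPKM + 1, hid1 minus WT (x axis, points, with 95% intervals as bars), for the 7 tested members above the dashed line and the 7 other tested genes of the TIFY family below it. JAZ1 (0.66) and JAZ11 (0.57) are called higher in hid1 and JAZ6 (-0.95) lower.

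The JAZ genes belong to the TIFY family, named for a short motif that binds NINJA. Of 9 TIFY genes outside the 10 members, 7 were tested and JAZ11 alone was called, beside 13.6% of all tested genes. The 6 others did not pass: PPD1 and PPD2, which limit leaf growth, TIFY8, and the GATA-type genes ZIM, ZML1 and ZML2 had log2 fold changes from -0.18 (PPD1) to 0.20 (ZML2). TIFY8 was at 49.6 ± 0.622 RPKM in WT and 47.6 ± 2.14 in hid1, higher than any JAZ gene. None of the windows at the start of these 6 genes held one of the 3 hexamers, which 26.4% of all protein-coding genes held. Those of JAZ4 and JAZ11 held none either, and that of AT3G22275 held 1 CACGTG and 1 AACGTG.

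The hormone's synthesis pathway differed in both directions. Of 16 genes listed, 14 were tested, with 4 lower, 3 higher and 7 not past the threshold, at a median log2 fold change of -0.07. Of all tested genes 4.21% were called lower and 9.41% higher, at a median of 0.07. The 4 that fell act in the plastid, where the precursor is made. They were AOS, allene oxide synthase (log2 fold change -1.65, limma adjusted p = 0.000704), the cyclase genes AOC1 (-1.16, adjusted p = 0.000964) and AOC2 (-1.41, adjusted p = 0.00761), and the lipoxygenase gene LOX2 (-1.06, adjusted p = 0.0404). LOX2 was at 38.8, 44.1 and 108.6 RPKM in hid1 replicates 1 to 3, against 113.1 to 126.5 in WT. AOC2 was at 25.5, 27.5 and 63.5 in hid1, against 90.5 to 106.4 in WT, so hid1 replicate 3 was nearest to WT for both. The 3 that rose encode enzymes of peroxisomal beta-oxidation, a pathway shared with other fatty acids. They were ACX1 (0.88, adjusted p = 0.00175), AIM1 (0.42, adjusted p = 0.0324) and KAT2 (0.42, adjusted p = 0.0395). The 7 not called had log2 fold changes of -0.33 (LOX3), 0.04 (LOX6), 0.12 (AOC3), 0.28 (AOC4), -0.18 (OPR3), -0.35 (OPCL1) and 0.22 (JAR1). Other genes of the lipoxygenase and cyclase families were thus not called lower. JAR1, the enzyme that joins jasmonate to isoleucine, was at 18.6 ± 4.13 RPKM in WT and 21.5 ± 1.73 in hid1 (adjusted p = 0.372). Of the 13 alternative settings, 9 ended the call on KAT2, 6 that on AIM1, 5 that on LOX2 and 1 that on AOC2 (no minimum level, adjusted p = 0.0521). With single libraries left out, LOX2 lost its call without WT replicate 2 (adjusted p = 0.0866) or 3 (0.0694) and without hid1 replicate 1 (0.117) or 2 (0.149). AIM1 and KAT2 each lost theirs on omission of any single library other than WT replicate 1 (highest adjusted p 0.101 for AIM1 and 0.143 for KAT2).

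Among 11 genes of jasmonate inactivation, 8 were tested. Over all tested genes 13.6% were called, and of these 8 genes 1 was. It was ST2A, a sulfotransferase that acts on hydroxyjasmonate, which rose from 3.41 ± 1.04 to 7.82 ± 1.26 RPKM (log2 fold change 1.02, SE 0.20, limma adjusted p = 0.00734). With a pseudocount of 5 the change of this low gene was 0.61, still past the threshold. CYP94B3, which oxidizes the active hormone, was at 1.45, 0.42 and 0.52 RPKM in WT and at 2.3, 1.76 and 1.8 in hid1. All its hid1 libraries were above those of WT, and it missed the threshold (adjusted p = 0.0518). It entered the test only through its hid1 mean (1.95 RPKM, against 0.797 in WT). Without WT replicate 1 it was called (adjusted p = 0.00368), where 3260 genes were called against 2569 with all libraries. CYP94B3 and JAZ10 were named for WT replicate 1 after their values were seen.

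Calls on genes whose proteins act directly with JAZ proteins are given as counts, beside 13.6% called of all tested genes. None of 5 genes of the receptor complex passed: COI1 was at 12.0 ± 0.50 RPKM in WT and 12.5 ± 1.12 in hid1 (log2 fold change 0.06, limma adjusted p = 0.795), and the ligase subunit genes ASK1 (adjusted p = 0.483) and RBX1 (adjusted p = 0.692) did not pass. At an unadjusted limma p under 0.05 there were 2 of these 5, ASK2 (0.0473) and CUL1 (0.0450), both higher in hid1. The same held for 5685 of all 18871 tested genes, in either direction. Of 6 corepressor genes 1 was called, TPR1, a relative of TOPLESS, which rose from 16.2 ± 0.70 to 22.1 ± 0.363 RPKM (0.42, adjusted p = 0.0250). NINJA (27.2 ± 0.979 and 31.1 ± 2.93, adjusted p = 0.298) and TPL (41.6 ± 1.35 and 49.4 ± 2.64, adjusted p = 0.137) did not pass. The call on TPR1 was lost in 7 of the 13 other settings. These included the removal of WT replicate 2 or 3 or of any hid1 library (adjusted p from 0.0631 to 0.0940).

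None of the 9 tested of 15 genes for JAZ-bound transcription factors and partners passed in limma, where 13.6% of all tested genes did. Of these 9, 1 passed in 3 of the 13 other settings. MYC2, the central activator, was at 24.86, 11.46 and 10.87 RPKM in WT and at 17.37, 13.95 and 13.38 in hid1. WT replicate 1 was the highest of all 6, and the other WT libraries were the lowest. The log2 fold change was 0.02 (SE 0.26, limma adjusted p = 0.976). MYC3 was at 19.5 ± 0.465 RPKM in WT and 19.7 ± 1.18 in hid1 (adjusted p = 0.958), MYC4 at 7.08 ± 1.40 and 5.22 ± 0.910 (adjusted p = 0.175), and JAM3, a repressing relative of MYC2, at 14.0 ± 1.16 and 17.1 ± 0.866 (adjusted p = 0.138). At an unadjusted p under 0.05 the list held 2 genes, JAM3 and GL1, against 5685 of all 18871 tested genes. GL1, a factor of trichome formation whose values were seen before it was named here, was at 2.5, 1.99 and 1.78 RPKM in WT and at 0.98, 0.58 and 1.42 in hid1, without overlap. It entered the test only through its WT mean (2.09 RPKM). It missed the threshold (log2 fold change -0.65, SE 0.20, adjusted p = 0.0578) and was called lower with quantile normalization (0.0360), median-ratio scaling (0.0409) and the replicate block (0.0452), with an adjusted p from 0.0360 to 0.152 over all settings.

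**Figure D5:**
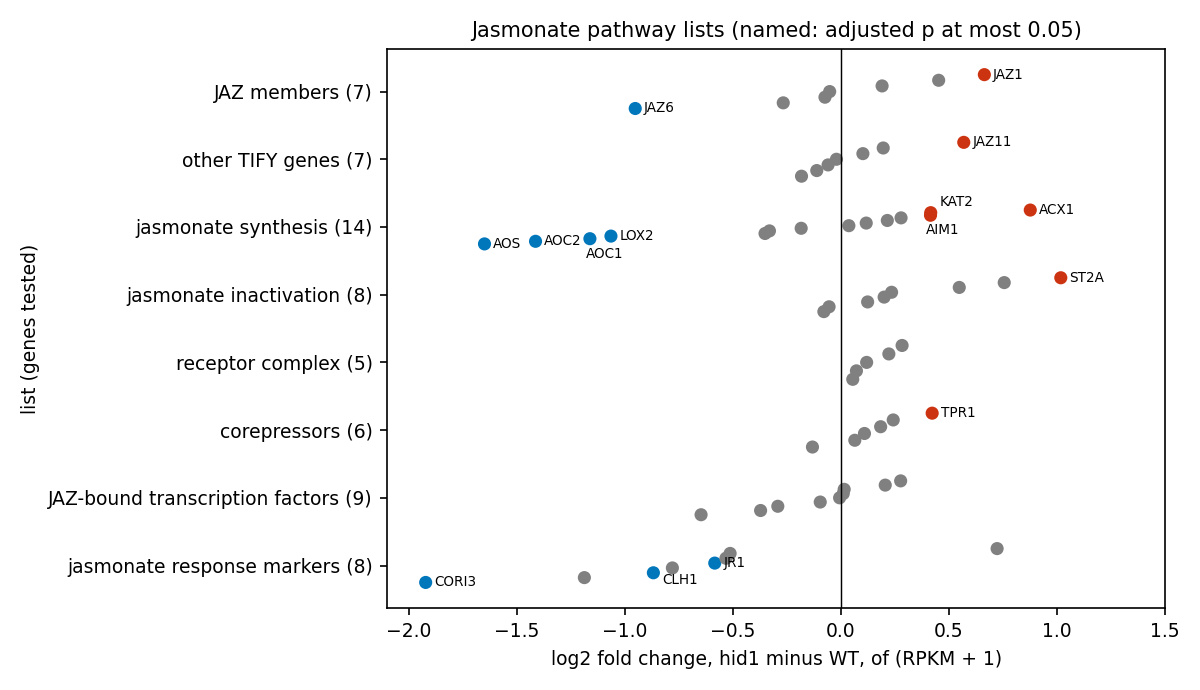
Log2 fold change of RPKM + 1, hid1 minus WT (x axis), of tested genes in 8 lists of the jasmonate pathway (y axis, number tested in brackets), with called genes named, red for higher and blue for lower in hid1. In the list of response markers 7 of 8 points lie below 0, as do 7780 of all 18871 tested genes. None of the receptor complex or of the JAZ-bound factors is called, beside 13.6% of all tested genes.

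Of 12 jasmonate response markers, 8 were tested, 3 fell and none rose, with a median log2 fold change of -0.68. Of all tested genes 4.21% fell and 9.41% rose, with a median of 0.07. VSP1, VSP2, PDF1.2 and ORA59, named after their values were seen, lay below 0 without a call (limma adjusted p = 0.225, 0.255, 0.161 and 0.104). PDF1.2 passed the minimum level only through WT replicate 3 (6.19 RPKM), and VSP1 only through its WT mean (1.51). Both are part of the median of the markers. CORI3, a jasmonate-induced lyase gene, was at 8.21, 6.68 and 5.46 RPKM in WT and at 0.41, 0.62 and 2.67 in hid1 (-1.92, SE 0.31, limma adjusted p = 0.00294). CLH1, a chlorophyllase gene, fell from 36.5 ± 3.48 to 19.5 ± 1.23 RPKM (-0.87, adjusted p = 0.000863) and JR1, a lectin gene, from 73.2 ± 13.7 to 48.5 ± 8.52 (-0.58, adjusted p = 0.0368). The calls on CORI3 and CLH1 held in all 13 other settings and that on JR1 was lost in 5, among them the removal of WT replicate 1 (adjusted p = 0.0632) or 2 (0.0653) or hid1 replicate 2 (0.127) or 3 (0.0917). A pseudocount of 5 in place of 1 lowered the log2 fold change of CORI3 to -0.93, and one of 0.1 gave -2.76. CORI3, CLH1 and JR1 share a direction with JAZ6 and not with JAZ1. That follows from naming the markers that fell, and a link to either JAZ gene was not tested. The marker above 0 was NAC055, a transcription factor gene also named after its values were seen (log2 fold change 0.72, limma adjusted p = 0.0544). It was called higher without WT replicate 1 (0.0147), without hid1 replicate 1 (0.0283) and with the replicate block (0.0390). These fits called 3260, 1764 and 3635 genes, against 2569 in the main fit. The adjusted p of NAC055 was from 0.0147 to 0.176 over all settings. Where 9.41% of all tested genes rose, a list of 9 early genes of touch and wounding, stimuli to which JAZ genes are known to respond, held 2 that rose. They were TCH3 (36.2 ± 5.32 to 81.4 ± 11.9 RPKM, adjusted p = 0.000607) and WRKY40 (2.01 ± 0.199 to 3.70 ± 0.371, adjusted p = 0.0186), the latter not called without WT replicate 2 (0.0673) or hid1 replicate 2 (0.0623). The summed RPKM of the 9 was 87.2 to 98.0 in WT and 121 to 163 in hid1. Without TCH3 the other 8 summed to 53.7 to 56.0 in WT and 53.3 to 71.5 in hid1, with overlap. The part of this list in the value of JAZ1 was not tested.

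The mean log2(RPKM + 1) of the 7 tested members was 3.52, 3.38 and 3.21 in WT replicates 1 to 3 and 3.42, 3.17 and 3.51 in hid1 replicates 1 to 3. The libraries of the genotypes were intermixed. Among 12707 other genes that averaged 5 RPKM or more, the 5 whose log2 values were most like this mean were AT1G67060, PS2, AT4G06598, RCI2A and XPO1A. Their Pearson r was 0.974 to 0.99 over the 6 libraries, a description of 6 points picked from many genes, all of which share the libraries' depth and scaling. None of the 5 was called, and their limma adjusted p was 0.816 or higher. That follows from the choice, since the mean they were matched to did not separate the genotypes.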

How the data were processed

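The 10 genes, the lists and the settings were chosen with earlier results of these data known. Poly(A) RNA of 3 WT and 3 hid1 seedling libraries was sequenced, grouped here by sample titles. Per the submitters' processing notes, reads were mapped to TAIR10 with TopHat2 2.0.9, and Cuffdiff 2.0.0 was used for differential genes. The authors deposited RPKM values per gene and library, per the file headers. How reads were counted per gene is not given in the sources used, including the annotation, strand and multi-mapped reads.

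Of 33323 gene IDs, 32835 were matched to RefSeq TAIR10.1, which gave names, exon lengths, positions and sequences. The match counts cover the windows of all 10 members, and the sequence of 1 of these windows is not reported here. The tables hold no coordinates, and the build was compared by name only. Depth was the number of reads that brought low values of genes under 700 bases closest to whole reads. It and the read numbers derived from it are approximations.

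The test was limma 3.58.1 (R 4.3.3; lmFit, eBayes with a trend) on log2(RPKM + 1) for genes averaging 1 RPKM or more in WT or hid1, with genotype as the only term and Benjamini-Hochberg adjustment. The test was checked on simulated data. Every member and TIFY gene is named; from the other lists up to 6 called genes, or the 2 most abundant where none passed, with COI1, NINJA, TPL, MYC2, MYC3, MYC4, AOS and JAR1 in any case. Tables and plots used Python 3.11.15, pandas 2.3.3, scipy 1.17.1 and matplotlib 3.10.9. The alternatives were pseudocounts of 0.1 and 5, no minimum level, quantile normalization, median-ratio scaling, a replicate block, each library left out, and, added after seeing the data, removal of a trend with exon length.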

Additional observations from a re-analysis of the deposited data

How the results depend on the processing

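Of the 10 JAZ genes, 2 were called in the main analysis, and 1 to 3 when single libraries were left out. The lowest count came without WT replicate 3 or hid1 replicate 3, where JAZ1 lost its call, and the highest without WT replicate 1, where JAZ10 gained one. With no minimum level the count was again 2 but the genes were JAZ5 and JAZ6. JAZ6 was called lower in all 14 fits. Over all genes, 2569 were called, and 1430 to 3260 with single libraries left out. Omitting replicate 1 gave 3260 (the WT library), the highest, or 1764 (the hid1 library). Omitting replicate 2 gave 1430 (WT) or 1517 (hid1), and omitting replicate 3 gave 1562 (WT) or 1614 (hid1). The replicate block called 3635 genes and left the JAZ calls at 2. Deviations of same-numbered libraries from their genotype means correlated at 0.31, 0.06 and 0.11, and WT replicate 2 correlated best with hid1 replicate 3 (0.26), so the numbers were not taken as pairs. The causes of these changes were not tested. No called gene of the JAZ group took the opposite sign in any setting, while JAZ2, which was never called, ranged from -0.15 to 0.11. Low read numbers limit what can be said of JAZ5, JAZ7 and JAZ8, and 3 libraries per genotype limit each exact test to a p of 0.1.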
